A study of Mus musculus with 16 samples.

Results

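Class II dendritic cells were selected on the measured counts of 12 genes from droplet single-cell RNA counts of mouse bone marrow and 597 of 94917 kept cells (0.629%) met it. Cells were kept when 750 or more genes were detected and mitochondrial genes took no more than 10% of the UMIs (unique molecular identifiers, 1 per captured RNA molecule). A member had at least 10 UMIs summed over Cd74, H2-Aa, H2-Ab1 and H2-Eb1, at most 1 UMI of Siglech, no UMI of Cd79a or Cd3e, and at most 2 of the monocyte genes Fn1, F13a1, Ccr2, Ly6c2 and Ms4a6c detected. Members with at least 1 UMI of Cd209a, the lectin DC-SIGN of mouse dendritic cells, numbered 68 (11.4%) and the Cd209a-negative members 529.

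The cells came from the lineage-depleted bone marrow of 16 C57BL/6 mice, which the labels give as 6 to 12 weeks old. WT mice carried the floxed allele without Cre (Tet2fl/fl), and Tet2-KO mice (labelled Vav-Cre-Tet2-/-) lacked Tet2, an enzyme that oxidises methylated DNA, in the cells where the Vav promoter drives Cre, which are mainly blood cells. Mice of each genotype received vehicle or 500 ng of recombinant IL1β per mouse per day intraperitoneally for 5 weeks, giving 4 groups of 4 mice, and each of the 8 libraries pooled 2 mice of 1 group that hashtag antibodies told apart. Because only Tet2-KO mice carried Cre, loss of Tet2 and presence of Cre cannot be told apart, and because magnetic depletion removed cells with mature-lineage surface proteins, which many mature dendritic cells carry, the shares given here describe the depleted fraction and not whole marrow.

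Conventional dendritic cells take up antigen, cut it in endosomes and load the peptides onto MHC class II, a dimer of an alpha and a beta chain that Cd74, the invariant chain, escorts from the endoplasmic reticulum. H2-DM exchanges the invariant chain fragment for peptide, H2-DO modulates that exchange, and Ciita is the coactivator that switches the whole group of genes on. In bone marrow these cells arise from Flt3-expressing precursors and split into cDC1, which need Irf8 and Batf3 and carry the receptors Xcr1 and Clec9a, and cDC2, which rely on Irf4 and carry Sirpa, Clec10a and, in some cells, Cd209a. IL1β acts through its receptor and Myd88 on NF-kB, whose inhibitor Nfkbia is itself a target.

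The genes of the class II module share short promoter elements, and 4 windows are printed to show them in 2 genes of the rule (H2-Aa and H2-Eb1) and 2 genes of peptide loading (H2-DMb1 and H2-Ob), all on chromosome 17. Each line gives the 150 bases before the RefSeq start of the gene (GRCm38.p6), 5′ to 3′ on the gene's strand, and the capitals mark the letters CCAAT or their reverse complement ATTGG.
H2-Aa (chr17:34287824-34287973, minus strand): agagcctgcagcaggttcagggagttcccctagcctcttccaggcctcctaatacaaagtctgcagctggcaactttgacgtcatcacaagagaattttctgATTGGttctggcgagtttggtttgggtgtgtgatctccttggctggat
H2-Eb1 (chr17:34305717-34305866, plus strand): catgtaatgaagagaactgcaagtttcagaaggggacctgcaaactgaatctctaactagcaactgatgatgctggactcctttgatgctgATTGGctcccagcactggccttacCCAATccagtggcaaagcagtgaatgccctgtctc
H2-DMb1 (chr17:34153041-34153190, plus strand): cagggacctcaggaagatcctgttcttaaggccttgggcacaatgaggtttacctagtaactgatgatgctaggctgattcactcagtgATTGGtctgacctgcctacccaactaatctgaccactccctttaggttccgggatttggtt
H2-Ob (chr17:34238755-34238904, plus strand): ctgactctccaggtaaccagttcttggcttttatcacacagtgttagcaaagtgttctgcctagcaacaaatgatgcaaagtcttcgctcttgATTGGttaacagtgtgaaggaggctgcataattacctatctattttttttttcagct
In these windows ATTGG began 48, 59, 61 and 57 bases before the start of H2-Aa, H2-Eb1, H2-DMb1 and H2-Ob, and 43 bases before that of H2-Oa. No match stood in the windows of H2-DMa, Cd209a, Xcr1, Clec9a or Batf3. Of 32851 windows of the same length, 24.5% held CCAAT or ATTGG and 13.7% held ATTGG, so a match is common and describes the letters only.

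The rule selected few of the cells that carry its marker genes. Of 1724 kept cells with 10 or more class II UMIs, 642 had a Cd79a UMI and were set aside, as were 23 with more than 1 Siglech UMI and 2 with a Cd3e UMI. A further 461 cells held 3 or more of the monocyte genes. Cd209a itself was mostly found outside: of 1232 kept cells with a Cd209a UMI, 5.52% were members, 994 held 3 or more monocyte genes and 686 had no class II UMI at all. The Cd209a-positive members are therefore a small, monocyte-gene-poor portion of the marrow cells with Cd209a.

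Cells on both sides of the rule's limits were compared, with no test. Of the 52 members with 10 or 11 class II UMIs, 5.77% had Cd209a, 3.85% Xcr1 and 50.0% Jchain, the joining chain of secreted antibodies. Of the 73 cells just outside, with 8 or 9 class II UMIs, 6.85% had Cd209a, 0% Xcr1 and 49.3% Jchain. Of the 154 members with 12 to 19, 9.74% had Cd209a, 0% Xcr1 and 41.6% Jchain. Of the 391 members with 20 or more class II UMIs, 12.8% had Cd209a, 14.3% Xcr1 and 18.7% Jchain. On the monocyte side, Cd209a was found in 17.8% of the 303 members with 2 of the 5 genes, in 31.3% of the 201 cells left out for having 3, and in 36.9% of the 260 with 4 or 5. Ccr2 (371 members) and Ms4a6c (280 members) made up most of the monocyte genes that members carried, while Fn1 was found in 15 and F13a1 in 8.

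Members were shallow cells. Their median was 2520 UMIs, against 5944 in all other kept cells, 6671.5 in 20798 monocytes (3 or more of the 5 monocyte genes and under 10 class II UMIs), 2881 in 247 plasmacytoid dendritic cells (3 or more Siglech UMIs) and 10853.5 in 16116 erythroid cells (2 or more Klf1 UMIs). Erythroid cells outside the rule, which should lack the genes of interest, were used to show free RNA. Of these, 0.298% reached 10 class II UMIs, 0.35% had a Cd209a UMI and 0.0869% an Xcr1 UMI, despite their greater depth. Members with 2 or more Klf1 UMIs were left out of this class, which lowers these shares. Erythroid-led cluster 8, described below, held 43 members, 10 of them with Cd209a. In members the shares were 11.4% for Cd209a, 9.72% for Xcr1, 18.1% for Clec9a, 33.2% for Batf3 and 21.8% for Ciita. H2-Ab1 alone had a background that could be seen, with a UMI in 13.6% of erythroid cells. Before the rule, each library held 8569 to 14573 kept cells and 52915002 to 95326908 UMIs, and no pair of libraries shared more than 0.512% of the barcodes of the smaller one.

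The label held for part of the members. Clusters 3 and 6 carried dendritic markers among their leading genes, cluster 1 carried cDC1 factors with few of the receptors, and the others were not named. The 597 cells fell into 11 clusters, which are described without a test because they were made from the same counts. Clusters 1, 3, 4, 5 and 6 (377 cells, 63.1%) were led by dendritic or cell-cycle genes. Clusters 2 and 7 to 11 (220 cells, 36.9%) were led by genes of other lineages. Zbtb46, which marks conventional dendritic cells, was detected in 69 members and Flt3 in 160, both at shallow depth.

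Cluster 6 (60 cells) was cDC1-like. Its leading genes were Cxcl9, Xcr1, Cadm1, Naaa, Ppt1 and Gcsam, all 18 genes of the cDC1 list were detected in at least 10% of its cells, and its median of 90 class II UMIs was the highest of the 11 clusters. Xcr1, the receptor for the chemokine Xcl1, had a UMI in 63.3% of its cells and the lysosomal hydrolase Naaa in 95%. Cluster 1 (102 cells) was led by Cldnd1, Irf8, Lgals1 and Id2, with Batf3 lower in the order. It resembled cDC1 in these factors but not in the receptors. There Xcr1 was found in 1.0% of cells and Clec9a in 15.7%, both below the shares over all members given above. Batf3 was found in 46.1%, at a median of 2105 UMIs per cell. Cluster 4 (70 cells) was led by replication histones together with Ifi205 and Clec9a, with Clec9a in 40.0% and Mki67, a proliferation marker, in 91.4% of cells, and was left unnamed because cell-cycle genes led it.

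Cluster 3 (81 cells) resembled cDC2 and was led by Cd209a, with Ccl9, Ifitm3, Clec4a3, Clec10a and Sirpa among its first genes. Lyz2 and S100a4 of the monocyte list and Cybb stood there too, so cDC2 and monocyte-related cells were not told apart. In cluster 3, Cd209a had a UMI in 37.0% of cells, Sirpa in 37.0% and Clec10a, a lectin for galactose-type sugars, in 14.8%. Id2 was found in 22.2% against 92.2% in cluster 1. Cluster 5 (64 cells) was led by mitotic genes such as Ube2c and Cenpf and stayed unnamed, with Cd209a in 20.3% of its cells and Naaa in 56.2%. Cluster 3 held 30 of the 68 Cd209a-positive members, cluster 5 held 13 and erythroid-led cluster 8 held 10.

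Cluster 2 (83 cells) was led by Slpi, Jchain, Ly6a, Mzb1 and Pou2af1, genes of antibody-secreting cells and their precursors, and was not named. It held 27 cells of WT vehicle, 26 of WT IL1β, 21 of Tet2-KO vehicle and 9 of Tet2-KO IL1β libraries. Cd74 was present in every cell at 6456 CPM (counts per 1e6, a gene's UMIs scaled to the total of the summed cells), but H2-Aa in only 19.3%, against 97.1% in cluster 1. Cluster 7 (45 cells) carried Elane, Mpo and Pf4, cluster 8 (43 cells) haemoglobin genes at a median of 12251 UMIs per cell, cluster 9 (22 cells) the lymphoid genes Il7r and Klrb1c, cluster 10 (18 cells) neutrophil granule genes, and cluster 11 (9 cells) the basophil proteases Prss34 and Mcpt8. Cluster 10 also held the migration genes Ccr7, in 38.9%, and Fscn1, in 33.3% of cells. Ccr7 was found in 13 members in all and both genes in 8. Of the 22 cells of cluster 9, 16 came from Tet2-KO IL1β libraries, of which mouse 2 alone held 9 and mice 1, 3 and 4 held 1, 1 and 4. The clusters include 31 members called as hashtag doublets, which the comparisons leave out, and doublets from the same mouse carry no mark. Their part in these clusters was not tested.

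**Figure D1:**
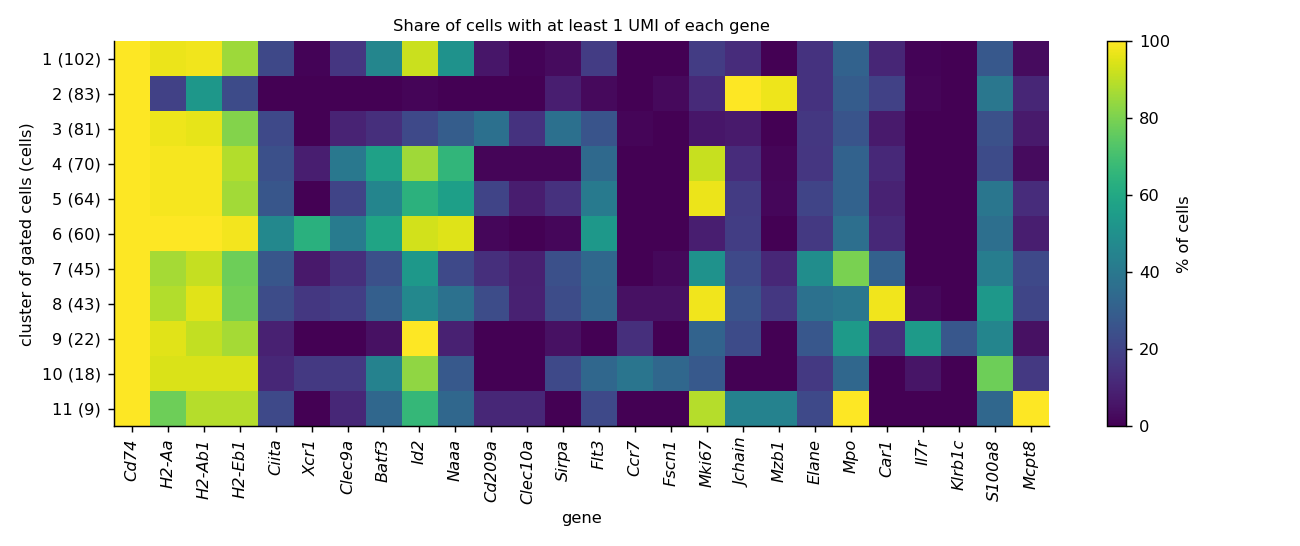
Share of cells with at least 1 UMI (colour, percent) for marker genes (columns) in the 11 clusters of class II dendritic cells (rows, with the number of cells). Xcr1 stands out in cluster 6 (63.3%), Cd209a in cluster 3 (37.0%) and Jchain in cluster 2 (100%), while the class II genes are found in most clusters.

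Against monocytes of the same mice, members were higher in genes of the cDC1 list and of the class II list outside the rule. All 18 genes of the cDC1 list rose, with a median log2 difference of 4.09 beside −0.08 over all 8351 genes tested, and 35.7% of all genes tested passed (1299 higher, 1680 lower, edgeR quasi-likelihood test, Benjamini-Hochberg adjusted p below 0.05, 15 mice, each its own block). With clusters led by other lineages left out, 986 genes rose and 3774 fell. The 12 genes of the rule are left out of this reading, and the classes differ in depth as given above. Genes with few or no UMIs in monocytes entered the test through members. The tallies of rises in this comparison are therefore partly set by the count filter.

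The lineage factors Batf3 (log2 difference 6.15 ± 0.27 SE, adjusted p = 5.97e-25) and Id2 (4.50 ± 0.14) rose in 15 of 15 mice. The level of Batf3 was 121 ± 52.9 CPM (SD, n = 15) in members and 1.85 ± 1.28 CPM in monocytes. Irf8, which monocytes use too, rose by 0.58 ± 0.10 and was higher in 13 of 15 mice, and by 1.12 without the clusters led by other lineages. Among surface receptors, Xcr1 rose by 7.84 ± 0.44 and Clec9a, which binds actin of dead cells, by 3.69 ± 0.27. The adhesion molecule Cadm1 rose by 8.10 ± 0.51 and Tlr3, a sensor of double-stranded RNA, by 8.38 ± 0.45, both from levels near 0 in monocytes.

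The class II list outside the rule (21 genes, 18 tested) had 11 genes higher and 1 lower, with a median of 1.43. Members were selected on 10 or more class II UMIs and monocytes on fewer, which sets part of these rises. Ciita, the coactivator of the module, was at 67.5 ± 23.2 CPM in members and 0.401 ± 0.371 CPM in monocytes, and rose by 7.31 ± 0.40. The peptide exchange factor showed unequal differences in its chains, 1.34 ± 0.12 for H2-DMa and 2.51 ± 0.14 for H2-DMb1. Its modulator H2-DO rose in both chains, by 2.83 ± 0.25 for H2-Oa and 3.76 ± 0.37 for H2-Ob. Cst3, an inhibitor of the cathepsins that cut antigen, was at 7299 ± 3722 CPM against 1303 ± 473 CPM in monocytes. Cathepsin D (Ctsd) was the 1 member of the list that fell (−0.42 ± 0.14, or −2.54 without the clusters led by other lineages).

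Of the 17 genes of the cDC2 list that were tested, 10 rose and 3 fell, with a median of 1.36. Irf4 rose by 5.09 ± 0.42 and the integrin Itgax (CD11c) by 2.91 ± 0.38, and Cd209a by 2.22 ± 0.37, higher in 9 of 15 mice. Clec12a (−1.86 ± 0.15), Sirpa (−0.89 ± 0.18) and Clec4a2 (−1.22 ± 0.27) were lower than in monocytes, which carry them as well. Without the clusters led by other lineages, the difference was 2.72 for Irf4 and −0.75 for Clec4a2.

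Of the maturation and migration list, 19 of 22 tested genes rose and 1 fell (median 2.54). The genes with the largest differences, Ccl22, Fscn1 and Il12b, each had few counts. In monocytes they had 0, 1 and 1 UMIs, so they entered the test through members. Without the clusters led by other lineages, among them cluster 10 with its Ccr7 and Fscn1, these genes were no longer tested. Fscn1, which bundles actin in mature dendritic cells, had 31 UMIs over the members of 15 mice, and was higher in 8 of them. Ccl22, a chemokine for regulatory T cells, had 30 UMIs in 5 mice and none in monocytes, which makes it at least 682-fold higher against a floor of 3 counts over the group. Of the class I list, 14 of 21 rose and 2 fell (median 0.64), and H2-K1 (0.63 ± 0.08) and B2m (0.78 ± 0.09) were higher in 15 of 15 mice. Without clusters led by other lineages these 2 were at −0.07 and −0.34, so their direction turned. Of the interferon response list 21 of 34 tested rose and 4 fell (median 0.95).

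Of the S phase list, 29 of 30 genes fell (median −0.66), and of the G2M list 10 of 33 fell and none rose (median −0.31). Mki67 did not pass (−0.03 ± 0.13, adjusted p = 0.904). Markers of other lineages stood beside these results: 9 of 10 tested B cell markers rose (median 5.45), 8 of 10 T and NK markers rose and 1 fell (3.2), and 13 of 19 erythroid and megakaryocyte markers rose (0.79), while 13 of 19 neutrophil markers fell and 1 rose (−1.25). Mzb1, a chaperone of antibody-secreting cells, rose by 9.17 ± 0.19. Its level was 513.6 CPM in Cd209a-negative members and 3.1 CPM in members outside clusters led by other lineages.

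Against plasmacytoid dendritic cells, the interferon producers of the dendritic family, members were higher in cDC1 genes and lower in all tested plasmacytoid markers. In the 7 mice with at least 10 cells of each class, 2728 genes were tested and 13.3% passed (190 higher, 174 lower, same test, mouse as block). These were WT vehicle mice 1, 3 and 4, Tet2-KO vehicle mice 1, 3 and 4 and Tet2-KO IL1β mouse 2, with no WT IL1β mouse. Of the cDC1 list, 10 of 12 tested genes rose and 1 fell (median 4.03, or 3.35 with genes at 0 in plasmacytoid cells set to their bound). Batf3, Xcr1 and Ifi205, at 0 in plasmacytoid cells, entered the test through members alone. The tally of rises is therefore partly set by the count filter. Of the plasmacytoid list all 12 genes tested fell (median −3.13, beside 0.01 over all genes). Ly6c2, a gene of the rule, was left out of that count. Plasmacytoid cells were selected on 3 or more Siglech UMIs and members on at most 1, which sets part of these falls. Leading genes of cluster 2 were higher in members as well, with Jchain at 11622 ± 5310 CPM against 47.9 ± 25.9 CPM (7.94 ± 0.26, 7 of 7 mice) and Prg2 at 235 UMIs against 1.

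Batf3, Xcr1 and Ciita had no UMI in the plasmacytoid cells of these mice, and were at least 27.1-fold, 13.5-fold and 14.5-fold higher in members against a floor of 3 counts over the group. Id2 rose by 5.24 ± 0.35 and Naaa by 5.12 ± 0.40. Irf8 instead was lower in members in 7 of 7 mice, with 1313 ± 408 CPM against 2934 ± 721 CPM (−1.17 ± 0.20, adjusted p = 0.000675, or −0.26 without the clusters led by other lineages). Tcf4, the factor that maintains plasmacytoid identity, was at 202 ± 69.6 CPM against 1794 ± 351 CPM (−3.16 ± 0.20), and Bst2 at −3.08 ± 0.17. Of the class II list 7 of 13 rose and 1 fell, with Cst3 (2.82 ± 0.20) and H2-DMb1 (2.10 ± 0.30) higher and cathepsin B (Ctsb, −1.52 ± 0.18) lower. Here too members were selected on class II UMIs, which sets part of these rises. Of the cDC2 list 1 of 8 rose (Ltb, a lymphotoxin subunit, 2.26 ± 0.48) and 3 fell, Cd7 (−2.40 ± 0.25), Clec10a (−1.94 ± 0.53) and Clec12a (−1.44 ± 0.26, or −0.86 without the clusters led by other lineages). Of the precursor list 6 of 9 fell and none rose, among them Ly6d (−2.66 ± 0.33, or −4.92 without those clusters) and Dntt, the polymerase that adds bases to rearranging receptors (−4.11 ± 0.62).

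**Figure D2:**
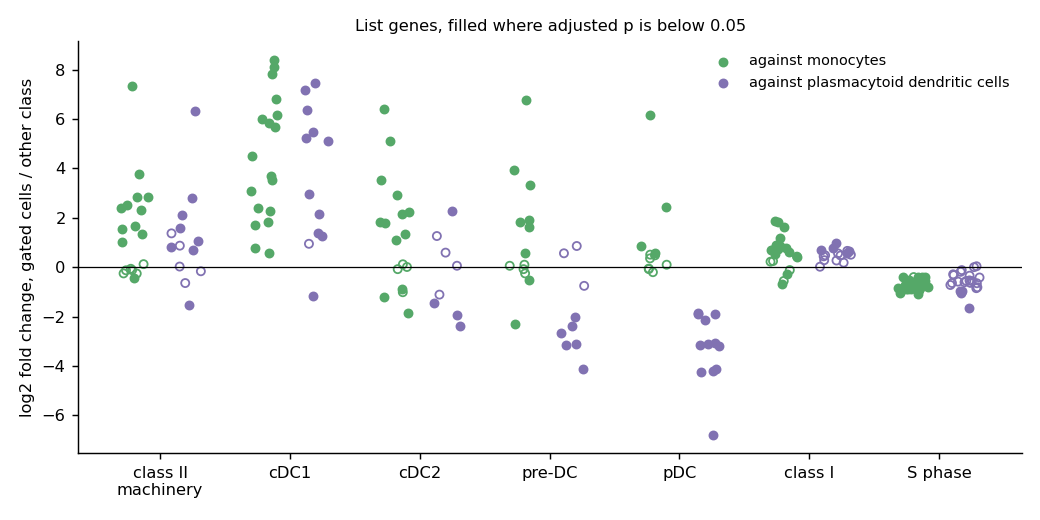
Log2 difference of members against monocytes (15 mice) and against plasmacytoid dendritic cells (7 mice) for genes of the lists, 1 point a gene, filled where adjusted p was below 0.05. The cDC1 genes lie above 0 in both comparisons, with Irf8 below 0 against plasmacytoid cells, and all 12 plasmacytoid genes lie below 0 there.

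Cd209a-positive members were compared with Cd209a-negative members of the same libraries to see whether the lectin marks a different cell. Only 1 mouse had 10 or more of each, so the planned comparison within mice could not be fitted, and the 5 libraries with at least 3 Cd209a-positive members served as blocks in its place. Of 2604 genes tested, 1.77% passed, 10 higher and 36 lower (Cd209a among the 10, where it was used to split the cells). Clec10a led the genes that rose. The genes that fell included cDC1 genes and leading genes of cluster 2, which held no Cd209a-positive cell.

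Clec10a was higher in 5 of 5 libraries (3.38 ± 0.75, adjusted p = 0.0032). In the libraries of Tet2-KO vehicle mice 1 and 2 and mice 3 and 4, WT IL1β mice 1 and 2 and mice 3 and 4, and WT vehicle mice 3 and 4, it was at 349, 240, 67.7, 18.9 and 109 CPM in Cd209a-positive and 6.62, 16.7, 19.5, 9.49 and 8.21 CPM in Cd209a-negative members. The positive values rest on 19 UMIs in all, and each was above its own negative value.

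Wfdc17, a secreted protease inhibitor of myeloid cells, was at 1395, 901, 1015, 302 and 579 CPM in positive and 271, 131, 215, 99.6 and 82.1 CPM in negative members of the same libraries in that order (2.40 ± 0.27, adjusted p = 3.19e-09). The lowest positive library was above the highest negative one. Ifitm3, which restricts virus entry, rose by 1.91 ± 0.30, the chemokine Ccl9 by 2.50 ± 0.39, Zeb2, a factor of cDC2 and monocyte development, by 1.65 ± 0.27, and S100a4 by 1.43 ± 0.28, each in 5 of 5 libraries. Ifitm2 (1.10 ± 0.27) and Ccdc163 (2.93 ± 0.77) complete the 8 with the largest rise outside the rule.

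Of the cDC2 list, 1 of 7 tested genes rose, Clec10a, and none fell (median 0.20, beside −0.10 over all genes), and Sirpa (1.35 ± 0.58, adjusted p = 0.48) did not pass. Of the cDC1 list, 6 of 12 tested genes fell and none rose (median −1.52). Id2 was at 225 ± 157 CPM in positive and 1073 ± 75.5 CPM in negative members (SD, n = 5 libraries; −2.13 ± 0.35). Naaa (−1.99 ± 0.38), Irf8 (−1.51 ± 0.32), Wdfy4, which serves cross-presentation (−1.53 ± 0.37), and Ppt1 (−2.72 ± 0.46) fell in 5 of 5 libraries. Xcr1 had 117 UMIs in negative members and none in positive ones, which makes it at least 5.76-fold lower. It entered the test through the negative members alone. At the level of single cells, 136 members had Xcr1 or Clec9a and 10 of these also Cd209a.

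Slpi, Mzb1, Ly6a, Retnlg, Fam46c and Mycl were likewise without a UMI in positive members. Slpi was at least 72.9-fold lower and Mzb1 at least 28.2-fold lower, and both are leading genes of cluster 2. Jchain had 5 UMIs in positive and 12866 in negative members (−8.67 ± 0.39). Without clusters led by other lineages, 26 genes passed, 13 in each direction, and the differences were 3.94 for Clec10a, 2.29 for Wfdc17, 1.72 for Ifitm2, −2.05 for Id2 and −1.49 for Irf8. B2m, which fell by 1.05 ± 0.27 over all members, was then at 0.05. Of the class II list 1 of 12 genes fell, Cst3 (−1.20 ± 0.24), and none rose.

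**Figure D3:**
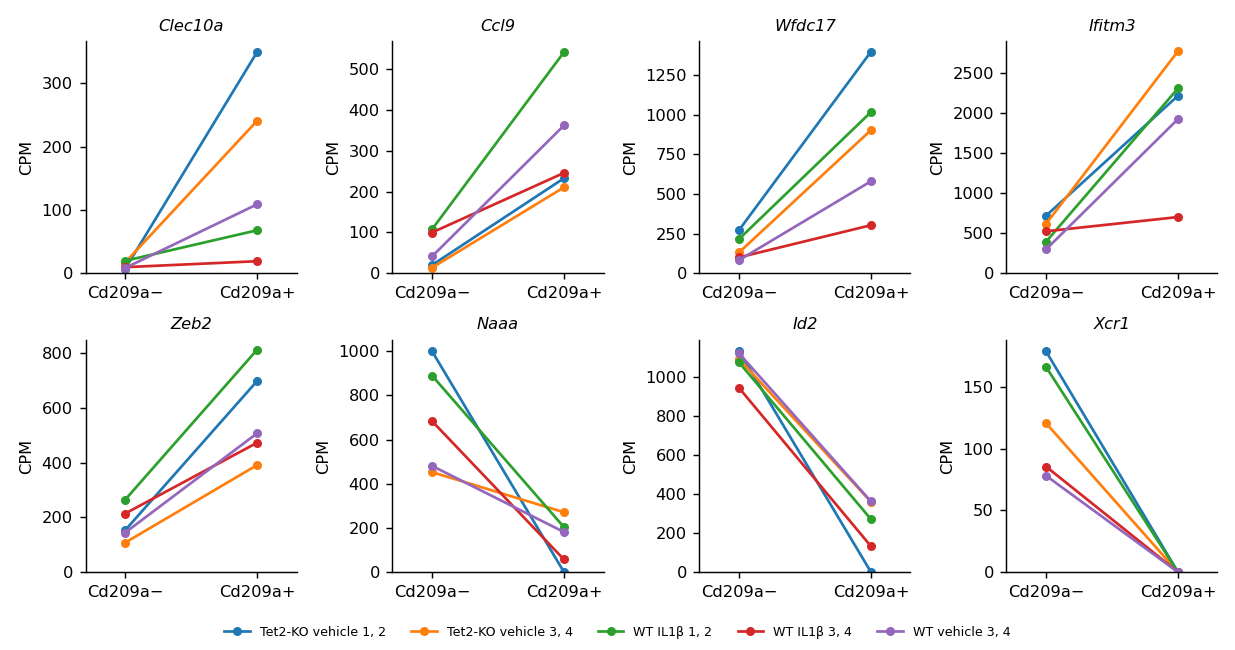
Level (CPM) of 8 genes in Cd209a-negative and Cd209a-positive members of 5 libraries, a line joining the values of 1 library. Clec10a, Ccl9, Wfdc17, Ifitm3 and Zeb2 are higher in the positive cells of each library, and Xcr1 is at 0 in all 5 positive sums.

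The share of members among the cells assigned to each mouse was lower with IL1β in mice of both genotypes, though no comparison passed after adjustment. In WT mice with vehicle it was 1.08%, 1.43%, 1.10% and 1.31%, and in WT mice with IL1β 0.420%, 0.563%, 1.08% and 0.915%. In Tet2-KO mice with vehicle it was 0.664%, 0.874%, 1.09% and 1.22%, and in Tet2-KO mice with IL1β 0.631%, 0.446%, 0.253% and 0.308%. Each Tet2-KO IL1β mouse lay below every Tet2-KO vehicle mouse, while the groups overlapped in the other 3 comparisons. Over libraries, cells without a hashtag call (105 members) were counted too. The shares were then 0.696% and 0.926% (WT vehicle), 0.381% and 0.729% (WT IL1β), 0.569% and 0.951% (Tet2-KO vehicle) and 0.378% and 0.239% (Tet2-KO IL1β). The Tet2-KO vehicle libraries lay on both sides of the WT vehicle ones. Assigned cells per mouse ranged from 698 (WT vehicle mouse 2) to 6432 (WT IL1β mouse 1). The library of WT vehicle mice 1 and 2 held 8333 cells without a doublet call, 58 of them members. Of these, 4159 cells with 45 members and 698 cells with 10 members were assigned. Both mice thus had higher shares than their library, so assigned cells were not an even sample of it.

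With IL1β the mean fell from 1.23% ± 0.168 to 0.745% ± 0.306 (SD, n = 4) in WT mice, a ratio of 0.605 (exact permutation test over mice, two-sided, p = 0.0571, adjusted p = 0.114 over 4 comparisons). In Tet2-KO mice it went from 0.964% ± 0.246 to 0.410% ± 0.168, a ratio of 0.425 (exact permutation p = 0.0286, adjusted p = 0.114). With 4 against 4 mice 0.0286 is the smallest p that 70 arrangements can give. Tet2-KO against WT differed by −0.267 percentage points with vehicle and −0.335 with IL1β (exact permutation p = 0.143 for both). The response to IL1β did not differ detectably between genotypes (difference of −0.0684 percentage points, permutation within treatment contrast over 4900 arrangements, exact p = 0.803). Fewer cells of the type and less class II RNA per cell cannot be told apart here, since the rule counts UMIs.

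Depth and the clusters of other lineages moved with these shares. After thinning every cell to 3000 UMIs and leaving out shallower ones, 202 of 73910 cells met the rule, some of which had not met it before thinning, the ratio was 0.815 in WT and 0.572 in Tet2-KO mice, and Tet2-KO with vehicle lay 0.0799 percentage points above WT instead of below it. The Tet2-KO groups then overlapped, with IL1β mouse 1 at 0.491% above vehicle mice 1 (0.405%) and 4 (0.467%). Of the 597 members, 210 had 3000 or more UMIs. Without clusters led by other lineages the mean shares were 0.690% (WT vehicle), 0.388% (WT IL1β), 0.647% (Tet2-KO vehicle) and 0.131% (Tet2-KO IL1β), giving ratios of 0.562 and 0.202 for IL1β in WT and Tet2-KO mice. These clusters were chosen after their values were seen, so no test is given. In Tet2-KO IL1β mice, clusters led by other lineages made up 77.8%, 70%, 36.4% and 71.4% of members, against 30.9% to 36.4% in Tet2-KO vehicle, 24.0% to 70% in WT vehicle and 36.8% to 61.5% in WT IL1β mice. Cluster 4 held 34 of 204 members of Tet2-KO vehicle and 0 of 64 of Tet2-KO IL1β libraries, and 22 of 174 of WT vehicle and 14 of 155 of WT IL1β libraries. Cluster 1 held 46 and 3 in Tet2-KO and 41 and 12 in WT libraries in the same order. Clusters 3, 5 and 6 held 24, 16 and 24 in Tet2-KO vehicle and 5, 5 and 9 in Tet2-KO IL1β libraries. In WT libraries they held 28, 10 and 11 with vehicle and 24, 33 and 16 with IL1β. These are counts of cells, and the WT IL1β libraries held more kept cells (14519 and 14119) than the WT vehicle ones (8569 and 11581). By library (mice 1 and 2, then 3 and 4), cluster 5 held 11 and 22 with IL1β and 5 and 5 with vehicle. Cluster 6 held 5 and 11 with IL1β and 4 and 7 with vehicle.

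**Figure D4:**
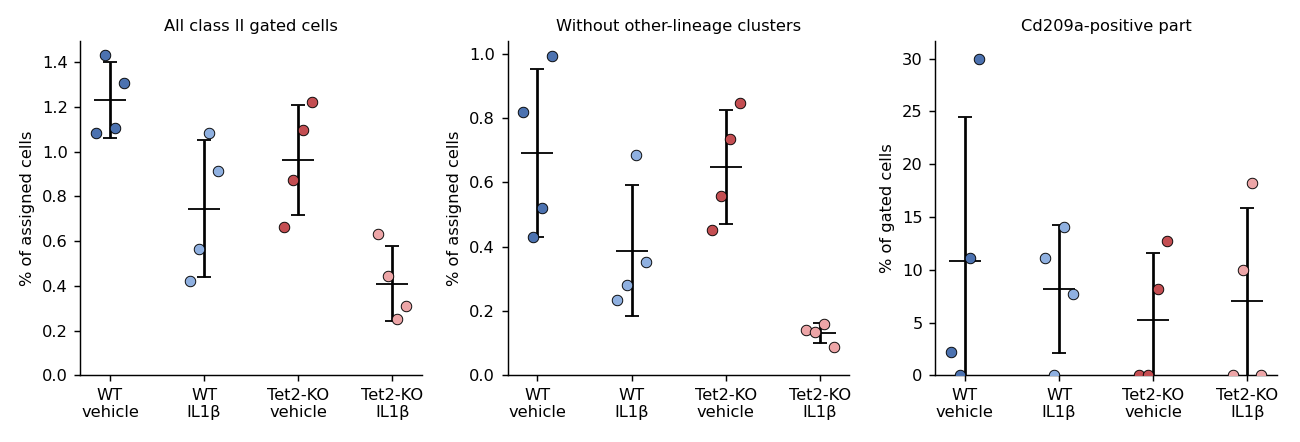
Per mouse (points) and group (mean ± SD, n = 4), the percent of assigned cells that were members, the same without clusters led by other lineages, and the percent of members with Cd209a. The 4 Tet2-KO IL1β mice lie between 0.253% and 0.631% in the first panel, all below the Tet2-KO vehicle mice, and the Cd209a shares overlap in all groups.

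The Cd209a-positive share of members was 2.22%, 0%, 11.1% and 30.0% in WT vehicle mice and 11.1%, 0%, 14.0% and 7.69% in WT IL1β mice. It was 0%, 0%, 8.20% and 12.7% in Tet2-KO vehicle mice and 0%, 10.0%, 18.2% and 0% in Tet2-KO IL1β mice. The groups overlapped in each comparison and none passed (exact permutation test, adjusted p = 0.857 in all 4). The mice had 9 to 61 members each, and the values of 0% allow shares of cells with a Cd209a UMI, not of cells expressing it, of up to 10.7% where a mouse had most members (0 of 28 cells) and up to 33.3% where it had fewest (0 of 9 cells), for counting error only.

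Within members, few genes differed between groups. The fit used 1862 genes and 15 mice, since Tet2-KO IL1β mouse 1, with 9 members, was below the minimum of 10. IL1β against vehicle called 0% of genes in WT mice (0 genes at adjusted p below 0.05, 237 at an unadjusted p below 0.05, and 29 by DESeq2). In Tet2-KO mice it called 0.161% (3 genes, all higher, 212 unadjusted, 11 by DESeq2). Tet2-KO against WT called 0% with vehicle (0 genes, 34 unadjusted, 0 by DESeq2) and 0.0537% with IL1β (1 gene, 134 unadjusted, 1 by DESeq2). The interaction of genotype and IL1β called 0% (0 genes, 78 unadjusted, 0 by DESeq2). The groups did not overlap for 6.98% of genes in the WT comparison of IL1β with vehicle, 10.8% in that of Tet2-KO mice, 1.88% between genotypes with vehicle and 6.93% with IL1β. The Tet2-KO IL1β group had fewer mice in the fit, and smaller groups fail to overlap by chance more often. The 10.8% and 6.93% are therefore not on the same scale as the other shares.

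Nfkbia, the inhibitor that NF-kB induces, was at 176, 129, 126 and 116 CPM in WT vehicle and 316, 467, 390 and 550 CPM in WT IL1β mice. In Tet2-KO mice it was at 233, 50.0, 138 and 103 CPM with vehicle and 545, 229 and 666 CPM with IL1β. The WT groups did not overlap and the Tet2-KO groups overlapped by 1 mouse of each. Nfkbia rose in Tet2-KO mice (1.87 ± 0.37, adjusted p = 0.0454), and the difference in WT mice was of like size but did not pass (1.63 ± 0.35, adjusted p = 0.0909), with an interaction of 0.25 ± 0.51. Without clusters led by other lineages the differences were 1.63 in WT (adjusted p = 0.163) and 1.56 in Tet2-KO mice (adjusted p = 0.408), and over libraries without these clusters 1.45 (adjusted p = 0.242) and 1.04 (adjusted p = 0.593), so neither passed. Few members were then left: 2, 6, 7 and 4 in Tet2-KO IL1β mice 1 to 4 and 3 in WT vehicle mouse 2. Nfkbia is named although its Tet2-KO groups overlapped, a choice made after its values were seen.

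Of the NF-kB list (26 genes) only 3 had enough counts to test, and 1 rose in Tet2-KO mice. The CPM summed over the list was 960, 1102, 1098 and 924 in WT vehicle and 2000, 2065, 1344 and 2388 in WT IL1β mice, which did not overlap. In members outside clusters led by other lineages it was 1042, 1778, 989 and 1250 in WT vehicle and 2383, 1931, 1650 and 1625 in WT IL1β mice. Vehicle mouse 2, whose value rests on 3 cells, then lay above IL1β mice 3 and 4. Over all members the sum was 1564, 798, 1023 and 1062 in Tet2-KO vehicle and 1266, 1614, 1464 and 1896 in Tet2-KO IL1β mice, which overlapped. Of the IL1 pathway list, 3 of 25 genes were tested and none passed. The CPM summed over that list was 864 to 1242 in Tet2-KO IL1β mice, above the 678 to 787 of Tet2-KO vehicle and the 665 to 856 of WT IL1β mice. In members outside clusters led by other lineages it was 613 to 1221 in Tet2-KO IL1β, 744 to 1027 in Tet2-KO vehicle and 609 to 878 in WT IL1β mice, which overlapped. These sums have no test and include Tet2-KO IL1β mouse 1, which had 9 members, 2 of them outside those clusters. The receptor Il1r1 had a UMI in 1.17% of members against 2.24% of other kept cells, and Il1a had none in members. The other cells were deeper (median 5944 UMIs against 2520 in members), and detection was not compared at equal depth.

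Ccnd2, a D-type cyclin, was at 160, 100, 91.8 and 146 CPM in Tet2-KO vehicle and 439, 408 and 393 CPM in Tet2-KO IL1β mice (1.71 ± 0.30, adjusted p = 0.0433). Every IL1β mouse lay above every vehicle mouse. In WT mice the levels were 103, 193, 196 and 110 CPM with vehicle and 351, 280, 195 and 275 CPM with IL1β (0.91 ± 0.30, adjusted p = 0.19). Ccnd2 was found in 81.8% of the cells of lymphoid-led cluster 9 and 71.1% of cluster 7, against 3.3% to 11.4% of clusters 1, 3, 4, 5 and 6. The part of those clusters in the result was not tested.

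Rgs18, a regulator of G protein signalling, was at 58.3, 100, 52.5 and 48.7 CPM in Tet2-KO vehicle and 212, 153 and 376 CPM in Tet2-KO IL1β mice (2.11 ± 0.41, adjusted p = 0.0454). These groups did not overlap. The WT levels were 145, 258, 94.3 and 85.6 CPM with vehicle and 87.7, 117, 132 and 68.8 CPM with IL1β (−0.07 ± 0.39). Over libraries without clusters led by other lineages the Tet2-KO difference was 0.33 (adjusted p = 0.929). DESeq2 gave Rgs18 no adjusted p, and IL1β called 0 genes in Tet2-KO mice without the 12 members above the 95th percentile of UMIs.

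Fli1, an ETS factor of blood progenitors and megakaryocytes, was the 1 gene called between genotypes with IL1β, higher where Tet2 was lost (2.29 ± 0.40, adjusted p = 0.0349). It was at 303, 229 and 427 CPM in Tet2-KO IL1β and 105, 70, 45.9 and 68.8 CPM in WT IL1β mice, which did not overlap. With vehicle it was at 160, 25.0, 98.4 and 97.3 CPM in Tet2-KO and 72.3, 129, 94.3 and 67.2 CPM in WT mice. Over libraries without clusters led by other lineages the difference with IL1β was 0.66 (adjusted p = 0.89). This comparison called 0 genes with pools as replicates, with log2 Xist as a covariate, and without the 12 members above the 95th percentile of UMIs, and DESeq2 called Fli1 (adjusted p = 0.0202).

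The calls of these 4 genes depended on which mice entered. With each of the 15 mice left out in turn, Ccnd2 lost its call in 8 fits, Nfkbia in 10 and Rgs18 in 11. All 3 calls were lost without Tet2-KO IL1β mouse 2 or 4, Tet2-KO vehicle mouse 2, 3 or 4, WT IL1β mouse 4 or WT vehicle mouse 1 or 4. Nfkbia and Rgs18 were also lost without WT IL1β mouse 3 or WT vehicle mouse 3, and Rgs18 without Tet2-KO vehicle mouse 1. Fli1 lost its call in 9 of the 15 fits, those without Tet2-KO IL1β mouse 4, Tet2-KO vehicle mouse 3 or 4, WT IL1β mouse 2, 3 or 4, or WT vehicle mouse 1, 3 or 4. The highest adjusted p in these fits was 0.233 for the 3 genes and 0.385 for Fli1. Without Tet2-KO IL1β mouse 3, IL1β called 9 genes in Tet2-KO mice. T and NK markers (17 genes, with Cd3g, Cd247 and Cd4 at 0) summed to 312 to 1637 CPM in members of Tet2-KO IL1β mice against 79.8 to 252 CPM with vehicle, and basophil and mast cell markers (13 genes, Cma1 and Mcpt4 at 0) to 129 to 7825 CPM against 39.9 to 1226 CPM. Stem and progenitor markers (20 genes) summed to 1870 to 4400 CPM in Tet2-KO IL1β, 1516 to 2330 CPM in Tet2-KO vehicle and 1219 to 4491 CPM in WT IL1β mice. Cluster 7 held 10 of 64 members in Tet2-KO IL1β, 18 of 204 in Tet2-KO vehicle and 8 of 155 in WT IL1β libraries. The part of these markers and of cluster 7 in these calls was not tested.

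**Figure D5:**
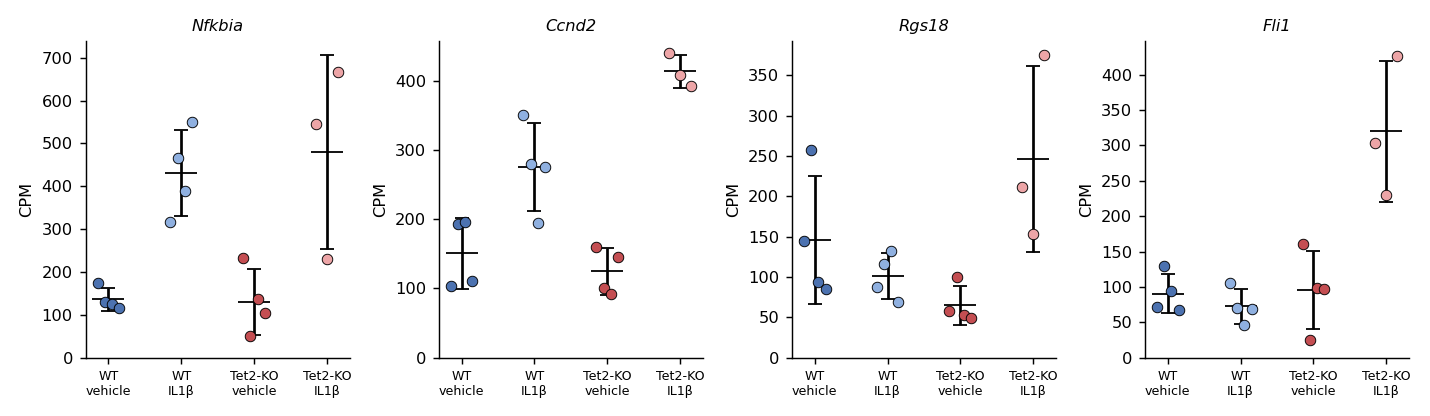
Level (CPM) of Nfkbia, Ccnd2, Rgs18 and Fli1 in the members of each mouse (points) by group, with the group mean ± SD (n = 4, but 3 mice for Tet2-KO IL1β). The Tet2-KO IL1β mice lie above the Tet2-KO vehicle mice for Ccnd2, Rgs18 and Fli1, and 1 of 3 lies within their range for Nfkbia.

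No gene of antigen presentation or of the cDC1 line passed in a comparison between groups. Of the class II list outside the rule, 10 of 21 genes were tested and none passed in any comparison, with medians of 0.16 for IL1β in WT and −0.42 in Tet2-KO mice beside 0.03 and 0.01 over all genes. The CPM summed over this list lay between 9116 and 16485 in Tet2-KO vehicle and between 5313 and 9582 in Tet2-KO IL1β mice, which overlapped. Once clusters led by other lineages were left out, the ranges were 14342 to 23016 and 11527 to 20706 CPM. Of the cDC1 list, 12 of 18 genes were tested and none passed. Irf8 was at 1778, 650, 1364 and 1320 CPM in Tet2-KO vehicle and 636, 637 and 324 CPM in Tet2-KO IL1β mice, which did not overlap, but the difference did not pass (−1.28, adjusted p = 0.151).

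Interferon response (11 genes tested of 51), S phase (13 of 30) and G2M genes (22 of 33) likewise had no call in any of the 4 comparisons or the interaction. Tet2 itself was detected in 24.0% of members and lay between 53.2 and 102.5 CPM over the 8 libraries, with no separation of genotypes. These are counts of the transcript's 3′ end, which do not check the deletion.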

How the data were processed

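Droplet counts (10x 3′ kit) of 8 mRNA libraries and counts of the matching hashtag libraries were used as the authors deposited them, as whole-number UMI counts per gene and barcode. The submitters' processing notes list Cell Ranger 3.1.0, Seurat 3.2.3 and mm10. Cells were assigned to mice with HTODemux (Seurat 5.3.0, quantile 0.99). Hashtag doublets were left out of comparisons, cells without a hashtag call were left out of those over mice but kept in those over libraries, and no expression-based doublet caller was run. UMIs were summed per mouse over members (at least 10 members) and tested with edgeR 4.0.16 (filterByExpr, TMM, quasi-likelihood test, all 4 groups in 1 fit, Benjamini-Hochberg adjustment). Group comparisons without clusters led by other lineages took mice with at least 3 members left. Shares were compared by exact permutation over mice, and mice are separate animals. Clusters came from Leiden (1500 genes, 15 components, resolution 1.0). Members and lists were chosen with earlier results of these data known. Named genes had the largest changes, up to 8 a direction, among calls whose groups did not overlap (between classes, among all calls), beside list genes and Tet2. Members totalled 2265374 UMIs. Alternatives covered DESeq2 1.42.0, filters, thresholds, depth, pools, covariates and left-out mice.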

Additional observations from a re-analysis of the deposited data

Results flagged for a closer look

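The median number of class II UMIs per member was 13 in WT IL1β mouse 4, which stood apart from 24 to 26 in the other 3 mice of that group (gap over range 0.846). About 1 in 20 groups is flagged by chance with this criterion, and the value rests on 13 members.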

How the results depend on the processing

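Of 122 comparisons of a result with an alternative other than leaving out a mouse, 88 were counted as unchanged. For shares this means the same direction and side of the threshold, and for genes a number of calls of like size. Shares over pools or within the replicate block could not pass, since the smallest possible p lies above the threshold. The share of members kept its direction in all comparisons but 1 under every alternative run, the exception being Tet2-KO against WT with vehicle after thinning (0.0799 percentage points). The Cd209a-positive share, never past the threshold, changed sign for IL1β in WT mice after thinning (9.08) and with pools as replicates (1.71), for IL1β in Tet2-KO mice with pools (−0.275), and for Tet2-KO against WT with IL1β at 20 or more class II UMIs (2.86) or 2 or more Cd209a UMIs (1.28).

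Counts of genes called moved as follows; the cause was not tested unless fewer cells or genes entered. IL1β in WT mice called 1 gene without cells of 2 or more B cell markers, 24 without a low-count filter, 1 over pools without clusters led by other lineages and 29 with DESeq2, which left 1336 adjusted p-values as NA. IL1β in Tet2-KO mice called 8 at 20 or more class II UMIs, 9 without B cell marker cells, 0 without cells above the 95th percentile of UMIs, 87 without a filter, 1 with log2 Xist as a covariate, 7 with pools, 11 with DESeq2, and 0 without clusters led by other lineages, over mice or pools. Tet2-KO against WT called 1 with vehicle without B cell marker cells and 11 without a filter. With IL1β it called 3, 2, 0 and 60 under the first 4 of these settings for Tet2-KO mice, and 0 with Xist, with pools and without clusters led by other lineages. The interaction called 24 without a filter. Against monocytes 4760 genes passed without clusters led by other lineages (986 higher, 3774 lower), against plasmacytoid cells 616 without a filter, and in the Cd209a split 27 at 20 or more class II UMIs and 26 without those clusters.

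Leaving out each mouse in turn gave shares of members differing by −0.598 to −0.377 (IL1β, WT), −0.654 to −0.468 (IL1β, Tet2-KO), −0.353 to −0.167 (genotype, vehicle) and −0.444 to −0.223 percentage points (genotype, IL1β). The Cd209a-positive shares differed by −6.23 to 3.77, −1.90 to 4.31, −9.21 to 0.787 and −4.88 to 1.18 in that order, and the calls numbered 0 to 3, 0 to 9, 0 to 1 and 0 to 4, with 0 for the interaction. The class comparisons gave 2756 to 3607 calls (monocytes) and 263 to 334 (plasmacytoid), and the Cd209a split, leaving out each library, 33 to 54. With the pool number as a replicate block the calls stayed at 0, 3, 0, 1 and 0, and the shares gave exact permutation p = 0.0556 for IL1β in either genotype, the smallest that 36 arrangements allow. Same-numbered pools correlated by −0.0229 to 0.242 over 3673 genes, 4 of 6 pairs above 0.1, so pairing is not established and the number was not used as a block in the main fits. Repeating the gene fits on Cd209a-positive members alone was not run, since 1 mouse had enough of them.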
